A study of Mus musculus with 6 samples.

Results

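The genes described here are those of mouse oocytes whose symbol is Trim followed by a number, leaving out Trim28. A gene was included when a probe set of the array named it alone, and where several did, the probe set with the highest mean over the 6 arrays stood for it. That gave 58 of the 19938 genes on the array. Each of the 58 had 1 probe set, so the mean over the arrays chose nothing. Trim25 was singled out in the family because its rise in these samples was already known, and its values are given as a description.

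Marf1 encodes an RNA-binding regulator of meiosis and retrotransposons in oocytes. RNA was amplified and measured in fully-grown oocytes from 3 Marf1 ENU/ENU (mutant) samples and 3 Marf1+/+ (wild type) samples, 1 array each. Females of both genotypes, strain C57BL/6J;C3HeB/FeJ, received 5 IU of equine chorionic gonadotropin at 21 days of age, and oocytes were collected 46 hours later, at 23 days, and freed of cumulus cells. The sources used here give neither the number of oocytes nor of animals behind a sample, so each p-value rests on a spread that may be technical.

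Trim proteins form one of the large families of RING ubiquitin ligases. Most carry a RING finger, 1 or more B-box zinc fingers and a coiled coil, and they differ in the domain that follows. That last part binds the target, and the RING passes ubiquitin or a related modifier to it. Many members act in the innate response to viral RNA and retroviruses, while others act at chromatin, on microtubules, on membranes or on messenger RNA. Fully-grown oocytes make little new RNA, and their stored RNA is shaped by translation, storage and decay. A level here is relative to the rest of its array. With 1 level per sample, less RNA per oocyte and fewer oocytes with the RNA cannot be told apart.

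Of the 58 Trim genes, 4 were higher in mutant oocytes at a limma adjusted p under 0.05 over all probe sets. They were Trim25, whose rise was known beforehand, Trim23, Trim12c and Trim33, and 0 were lower. Over all genes the same threshold called 6.4% higher and 4.04% lower, 10.4% in all. The 4 genes make up 6.9% of the family, which is close to the share of all genes and is not a result about the family. By limma's p before adjustment, 9 Trim genes were higher and 5 lower at 0.05, against 11% and 13.5% of all genes. All 3 mutant arrays lay above all 3 wild-type arrays in 11 Trim genes and below them in 7, where this was so for 12.9% and 17.7% of all genes. The median log2 difference between mutant and wild type was 0.01 over the family and -0.04 over all genes. The plot of difference against level shows 3 members far from zero and most of the others close to it. Mutant replicate 3 was the lowest mutant array in all 4 called members, as it was in 69.9% of the 1276 genes called higher.

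**Figure D1:**
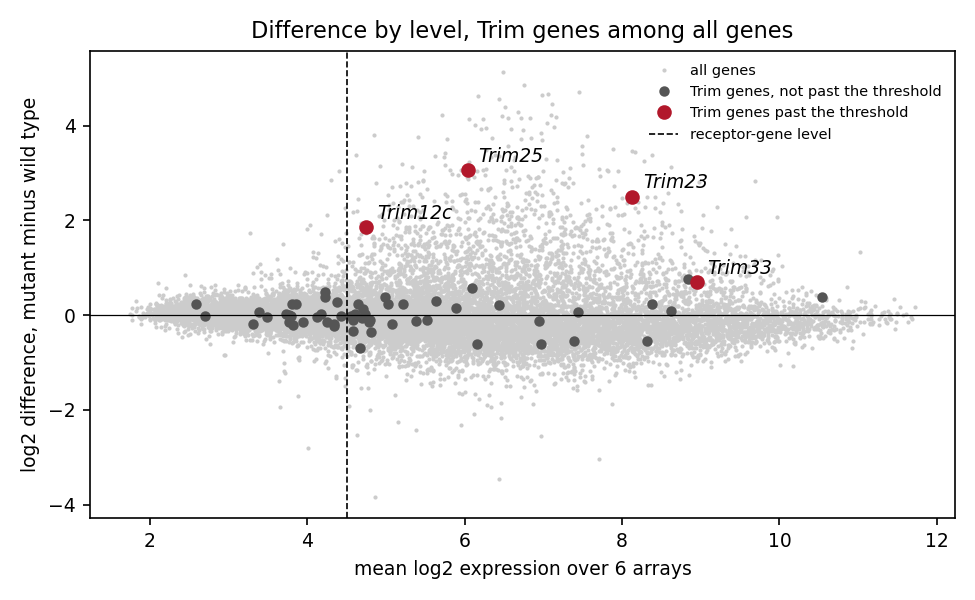
Log2 difference between mutant and wild-type oocytes (vertical axis) against the mean log2 expression over the 6 arrays (horizontal axis), 1 point per gene, with the 58 Trim genes over all 19938 genes. The dashed line is the receptor-gene level of 4.51. Trim25, Trim23, Trim12c and Trim33 are the 4 Trim genes past the threshold, and the other 54 lie between -0.69 and 0.77.

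No measure of background was used here. Among 1190 olfactory and vomeronasal receptor genes, the 95th percentile of their mean levels, 4.51 on the log2 scale, was taken as a description of a dim signal and is called the receptor-gene level. By their mean over the 6 arrays 36 Trim genes lay above it and 22 at or below it. Differences of the 22 may be understated.

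Marf1 itself, the mutated gene, read 5.98, 6.40 and 6.16 in mutant oocytes and 9.21, 9.16 and 9.31 in wild-type oocytes. Mutant replicate 3 stood apart from the other arrays. Its correlation across probe sets with the other mutant arrays was 0.97 and 0.973, while mutant replicates 1 and 2 correlated at 0.985 and the wild-type arrays at 0.984 to 0.985. Of the 10 oocyte markers measured 0 passed the threshold in either direction. By limma's p before adjustment 1 was lower at 0.05, beside 13.5% of all genes. All 10 oocyte markers had a negative difference, from -0.45 to -0.04, as had 11267 of the 19938 genes. The median was -0.12 over these markers and -0.04 over all genes. Their summed linear level was 15900 to 19700 in mutant arrays and 18800 to 21000 in wild-type arrays. Among 13 markers of cumulus and granulosa cells 2 rose, Nr5a2 and Kitl, and 0 fell. The summed linear level of these 13 was 1350 to 1700 in mutant arrays and 678 to 739 in wild-type arrays. Without Nr5a2 and Kitl the sums were 245 to 303 in mutant and 248 to 306 in wild type, and by their mean over the 6 arrays 7 of the 13 lay above the receptor-gene level and 6 at or below it, with Fshr, Amh and Amhr2 among the 6 and Gja1, Foxl2 and Fst among the 7. Of 9 theca and stroma markers Pdgfra rose, with sums of 193 to 224 in mutant and 188 to 216 in wild type, or 163 to 192 and 171 to 196 without Pdgfra. Of 8 blood, immune and endothelial markers Pecam1 fell, with sums of 201 to 240 in mutant and 267 to 296 in wild type. Without Pecam1 these sums were 132 to 150 in mutant and 111 to 148 in wild type. Of all genes 6.4% were called higher and 4.04% lower. With so few markers, the calls are not read as a result about a cell type. The part of other cells in the Trim results was not tested.

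Trim25 (probe set 10380260) is a ligase for ubiquitin and for the ubiquitin-like modifier ISG15. It binds RNA and is known for its action on the viral RNA sensor RIG-I and on the precursor of the let-7 microRNA. It read 7.93, 8.09 and 6.70 in mutant oocytes and 4.59, 4.44 and 4.51 in wild-type oocytes. Every mutant array was above every wild-type array, and mutant replicate 3 was well below the other mutants. The means were 7.57 ± 0.76 in mutant and 4.51 ± 0.08 in wild type (log2, SD, n = 3 each), a log2 difference of 3.06 (SE 0.34, 8.34-fold). Without mutant replicate 3 the difference was 3.50. Its wild-type mean equalled the receptor-gene level at 2 decimals, so the rise may be a lower bound.

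Trim23 (probe set 10406953) joins a Trim ligase to a GTPase domain of the ARF type, which in other proteins directs membrane traffic. It read 9.54, 9.49 and 9.10 in mutant oocytes and 7.16, 6.57 and 6.89 in wild-type oocytes. The groups did not overlap, and both lay well above the receptor-gene level. The means were 9.38 ± 0.24 in mutant and 6.87 ± 0.30 in wild type (SD, n = 3 each), so Trim23 rose by 2.50 (SE 0.20, 5.67-fold, limma adjusted p = 4.29e-04). It passed the threshold under all 16 alternatives tried, with differences of 2.35 to 2.66 and adjusted p of 8.07e-06 to 0.00362.

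**Figure D2:**
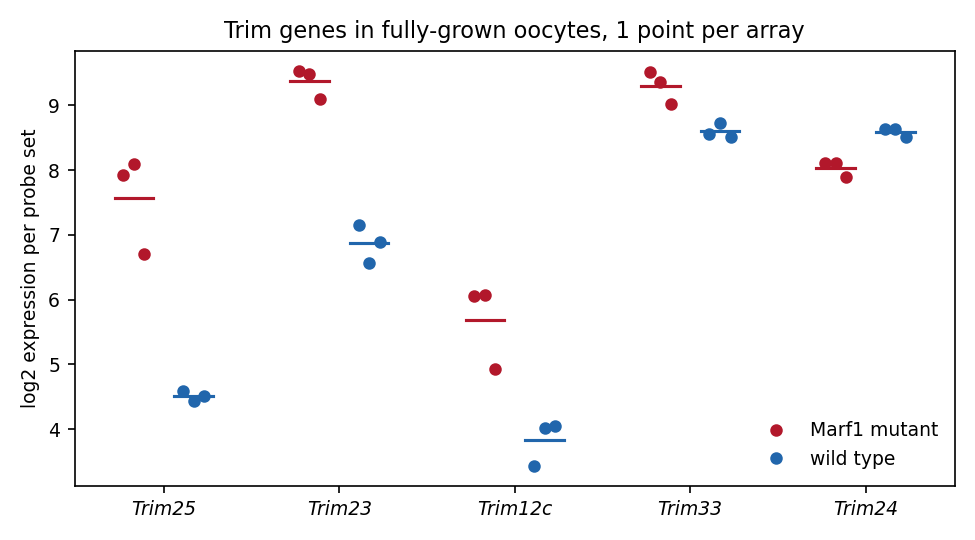
Log2 expression per probe set (vertical axis) of the 4 Trim genes past the threshold and of Trim24, 1 point per array and a line at the mean of each genotype, with mutant in red on the left of wild type in blue. Trim25 spans 6.70 to 8.09 in the mutant and 4.44 to 4.59 in wild type, and Trim24 is the gene of the 5 whose mutant points lie lower.

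Trim12c (probe set 10566346) belongs to a run of Trim genes that holds the mouse relatives of the retrovirus restriction factor TRIM5 known from primates. It read 6.06, 6.07 and 4.92 in mutant oocytes and 3.43, 4.01 and 4.04 in wild-type oocytes. The mutant arrays were all higher, again with replicate 3 the lowest of them, and the wild-type values lay below the receptor-gene level. The means were 5.68 ± 0.66 in mutant and 3.83 ± 0.34 in wild type (SD, n = 3 each). Trim12c rose by 1.86 (SE 0.33, 3.62-fold, limma adjusted p = 0.0158), which may be a lower bound. The call was lost without wild type replicate 1 (adjusted p = 0.0633), mutant replicate 1 (0.0576) or mutant replicate 2 (0.0538), and the difference was 2.24 without mutant replicate 3.

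The promoter windows of these 3 rising genes are printed because the members rose in the same oocytes and because interferon induces several Trim genes. RefSeq (GRCm38.p6) gave windows for 45 of the 58 Trim genes and for 3 of the 4 that rose (Trim33 is the other). Each line holds the 250 bases before the annotated start, so a match that crosses or follows the start could not be found. Capitals mark a match to the interferon-stimulated response element searched as GAAA, any 2 bases and GAAA again. The gamma-activated site, TTC and GAA with any 3 bases between them, and the oestrogen response element, GGTCA and TGACC with any 3 bases between them, were searched as well. All were searched on both strands, and the match found overlaps no other.
Trim25, chr11:88999153-88999402, plus strand: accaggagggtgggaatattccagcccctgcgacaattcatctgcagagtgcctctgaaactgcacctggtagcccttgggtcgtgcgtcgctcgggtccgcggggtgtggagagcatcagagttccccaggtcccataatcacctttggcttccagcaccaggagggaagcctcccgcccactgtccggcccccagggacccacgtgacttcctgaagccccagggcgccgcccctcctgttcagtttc
Trim23, chr13:104178589-104178838, plus strand: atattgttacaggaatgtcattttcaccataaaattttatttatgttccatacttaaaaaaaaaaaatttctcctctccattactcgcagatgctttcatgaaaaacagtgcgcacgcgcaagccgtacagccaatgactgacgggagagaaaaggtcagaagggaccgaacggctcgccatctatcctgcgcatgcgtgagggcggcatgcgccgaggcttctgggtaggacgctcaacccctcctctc
Trim12c, chr7:104353350-104353599, minus strand: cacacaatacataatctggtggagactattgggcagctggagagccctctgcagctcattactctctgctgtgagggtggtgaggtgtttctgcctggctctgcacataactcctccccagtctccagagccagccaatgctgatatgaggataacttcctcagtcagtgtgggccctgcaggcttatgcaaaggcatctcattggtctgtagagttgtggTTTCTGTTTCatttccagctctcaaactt
Trim12c alone of the 3 held a match to the interferon-stimulated element, 1 match on the opposite strand that starts 29 bases before the annotated start. Such a match was present in 2.98% of 32851 windows of all genes, the gamma-activated site in 7.02% and the oestrogen element in 0.0639%. None of the 3 windows held either of the last 2 or the letters TATAAA, which 12.4% of all windows held. The window of Trim25 held 12 CpG dinucleotides, that of Trim23 15 and that of Trim12c 0, where the median over all windows was 6. A match describes these letters and says nothing about binding.

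In RefSeq gene order the run around Trim12c goes from Trim6 through Trim34a, Trim5, Trim12a, Trim34b, Trim12c, Trim30b, Trim30c, Trim30a and Trim30d to Trim30e-ps1, a transcribed pseudogene. Of these, 7 had a probe set of their own and 1 of the 7 rose, Trim12c, beside 6.4% of all genes. A pair of further probe sets named Trim12c together with near relatives. The probe set for Trim5, Trim12c and Trim12a (10566333) read 6.61, 6.57 and 6.38 in mutant oocytes and 4.52, 4.82 and 4.56 in wild-type oocytes. It rose by 1.89 (SE 0.15, limma adjusted p = 4.14e-04), with all mutant arrays higher. The probe set for Trim5 and Trim12c (10601581) read 6.77, 7.08 and 6.38 in mutant oocytes and 5.23, 5.15 and 5.11 in wild-type oocytes. It rose by 1.58 (SE 0.19, limma adjusted p = 0.00269), again without overlap. The 3 probe sets may share sequence and are not independent readings, and a signal cannot be divided between Trim5 and Trim12c. The probe set of Trim12a alone read 2.70, 2.86 and 2.54 in mutant oocytes and 2.35, 2.69 and 2.38 in wild-type oocytes, all dim, with a difference of 0.23 (SE 0.16).

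Trim30a, an inhibitor of NF-kB signalling in mouse macrophages, lay on the other side of zero. It read 5.71, 5.81 and 6.02 in mutant oocytes and 6.30, 6.39 and 6.67 in wild-type oocytes. The groups did not overlap, but the difference of -0.61 (SE 0.16, limma adjusted p = 0.066) missed the threshold, and it passed under 6 of 16 alternatives. Trim6 had a difference of -0.36, Trim34a of 0.23, Trim30d of -0.18 and Trim30e-ps1 of -0.02, each with overlapping arrays. A probe set for Trim30b and its neighbour Gm38525 differed by 0.04. The probe sets that rose here are thus those that name Trim12c, as the plot in gene order shows, and the shared ones also name Trim5. Probe sets were placed in the run by the names they carry.

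**Figure D3:**
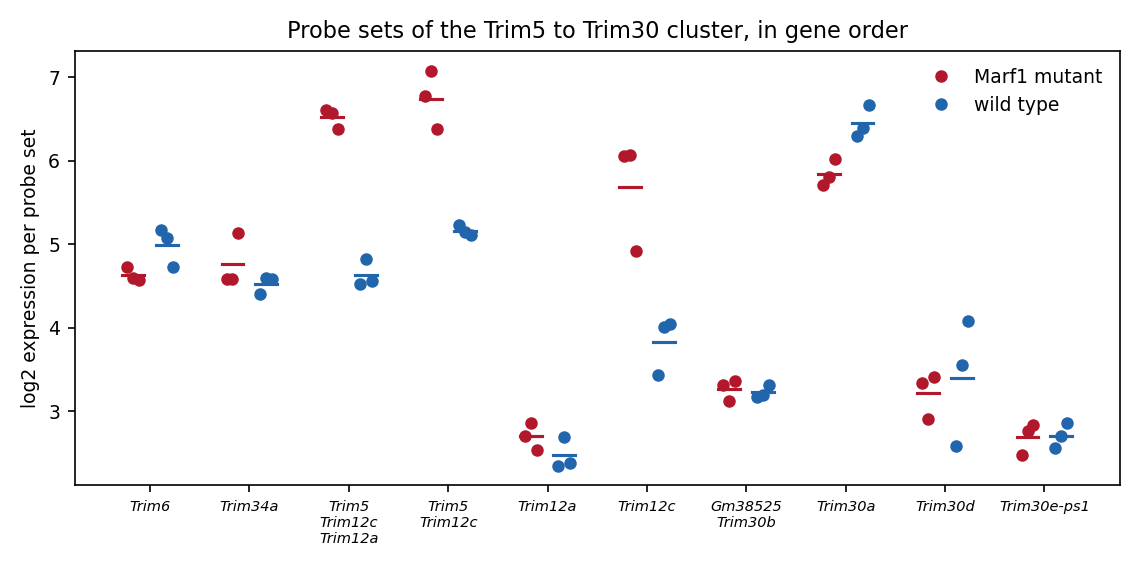
Log2 expression per probe set (vertical axis) for the run of genes from Trim6 to Trim30e-ps1 in gene order, 1 point per array and a line at each mean, with mutant in red on the left of wild type in blue. Labels with several names are probe sets shared by those genes. The 3 labels that hold Trim12c have every mutant point above every wild-type point.

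The TIF1 type, which carries a PHD finger and a bromodomain that read histone tails, had 1 member higher and another near the threshold on the other side. Over all genes 10.4% passed. With so few members, the calls in this and the other types are not read as results about a type. Trim33, a ligase that acts on Smad4 and restrains signalling by the TGF-beta family, read 9.51, 9.37 and 9.03 in mutant oocytes and 8.56, 8.73 and 8.51 in wild-type oocytes. It rose by 0.70 (SE 0.17, 1.63-fold, limma adjusted p = 0.0449), with no overlap of the arrays. The call was lost in every fit without 1 of wild type replicates 1 to 3 or of mutant replicates 1 and 2, at adjusted p of 0.0888 to 0.16, and kept without mutant replicate 3. It was also lost with the replicate number as a block (adjusted p = 0.0728) and after median centring (0.094).

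Trim24, a co-regulator of nuclear receptors and a ligase for p53, read 8.11, 8.11 and 7.90 in mutant oocytes and 8.64, 8.63 and 8.51 in wild-type oocytes. All mutant arrays were lower. The difference was -0.55 (SE 0.14, limma adjusted p = 0.0501), just outside the threshold, and it passed under 6 of 16 alternatives. Trim66, a member known from testis, was dim in both genotypes and differed by -0.04 (SE 0.13). Trim28, the co-repressor of KRAB zinc-finger proteins that is left out of the 58, read 7.89, 7.79 and 7.84 in mutant oocytes and 7.50, 7.56 and 7.62 in wild-type oocytes. Its difference of 0.28 (SE 0.13, limma adjusted p = 0.278) did not pass, although its arrays did not overlap.

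Trim13 and Trim59 are anchored in membranes, Trim13 in the endoplasmic reticulum. Trim13 read 10.71, 10.92 and 10.57 in mutant oocytes and 10.41, 10.38 and 10.23 in wild-type oocytes, a difference of 0.39 (SE 0.15, limma adjusted p = 0.185). It passed under 1 of 16 alternatives. Trim59 read 9.44, 9.57 and 8.68 in mutant oocytes and 8.77, 8.32 and 8.28 in wild-type oocytes, a difference of 0.77 (SE 0.26, limma adjusted p = 0.138). The arrays of Trim59 overlapped through mutant replicate 3, and without that array it passed (difference 1.05, limma adjusted p = 0.0223), as under 4 more of the 16 alternatives.

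Among the 4 members with NHL repeats, which bind RNA or protein, 0 passed, beside 10.4% of all genes. Trim32, mutated in a muscular dystrophy of humans, read 8.62, 8.81 and 8.54 in mutant oocytes and 8.58, 8.72 and 8.44 in wild-type oocytes. These arrays overlapped throughout, with a difference of 0.08 (SE 0.15). Trim71, the mouse form of the worm gene lin-41 and a target of let-7 that represses messenger RNAs, read 5.92, 6.00 and 5.99 in mutant oocytes and 5.82, 5.75 and 5.89 in wild-type oocytes. The difference of 0.15 (SE 0.13, limma adjusted p = 0.625) was small although the arrays did not overlap. Trim3, known from neurons, differed by 0.57 (SE 0.14, limma adjusted p = 0.0544) with all mutant arrays higher, and passed under 5 of 16 alternatives. Trim2 differed by -0.05.

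Of the 8 members with a COS box, which binds microtubules, 0 passed, beside 10.4% of all genes. Their differences ran from -0.62 to 0.03. The lowest was Trim36, a sperm protein of the acrosome reaction, at 6.91, 6.71 and 6.36 in mutant oocytes and 7.43, 7.23 and 7.18 in wild-type oocytes (limma adjusted p = 0.0847). Its arrays did not overlap, and Trim36 passed under 4 of 16 alternatives. The muscle ligases Trim54, Trim55 and Trim63 differed by -0.15, 0.01 and 0.02, the neuronal Trim9, Trim46 and Trim67 by -0.22, 0.02 and -0.34, and Trim42 by 0.03. Trim37, which acts at centrosomes and peroxisomes and has a domain of its own type, differed by -0.13 (SE 0.17), and Trim45, with a filamin repeat, by 0.12 (SE 0.14).

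Of the 23 members with a PRY-SPRY domain outside the run around Trim12c, 1 passed the threshold, beside 10.4% of all genes. It was Trim25, which lay far from the rest. The next higher difference was that of Trim62, at 0.38, and the lowest was that of Trim15, at -0.69. Trim27, a ligase of endosome sorting, read 7.62, 7.40 and 7.38 in mutant oocytes and 7.34, 7.39 and 7.50 in wild-type oocytes, with a difference of 0.06 (SE 0.14). Trim15, a protein of focal adhesions, had a limma adjusted p of 0.056 and Trim75, at -0.54, one of 0.184, both with all mutant arrays lower. Trim15 passed under 4 of 16 alternatives. Trim21, the antibody receptor of the cytosol whose protein is injected into oocytes to degrade chosen targets, was dim, at 4.24, 4.11 and 4.40 in mutant oocytes and 4.33, 4.22 and 4.75 in wild-type oocytes. It differed by -0.18 (SE 0.18).

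In the remaining PRY-SPRY members the differences were small. Trim39, Trim11, Trim35 and Trim41 lay between 0.21 and 0.29. Trim7, Trim72, Trim50, Trim16, Trim26, Trim14, Trim65, Trim68, Trim69, Trim58, Trim10, Trim47 and Trim38 lay between -0.24 and 0.06. Of the 8 members placed in no type, 0 passed, beside 10.4% of all genes. Their differences ran from -0.07 for Trim31 to 0.48 for Trim8. Trim8, a regulator of cytokine signalling, had all mutant arrays higher (limma adjusted p = 0.103), as had Trim40 at 0.38. Trim8 passed under 2 of 16 alternatives. Trim44, which lacks the RING, read 8.27, 8.60 and 8.62 in mutant oocytes and 8.38, 8.25 and 8.13 in wild-type oocytes, a difference of 0.24 (SE 0.16). Trim56, Trim29, Trim80 and Trim52 differed by 0.27, 0.24, 0.23 and -0.01. Trim3, Trim8, Trim15, Trim21, Trim30a, Trim36, Trim62, Trim71 and Trim75 are described after their values were seen.

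**Figure D4:**
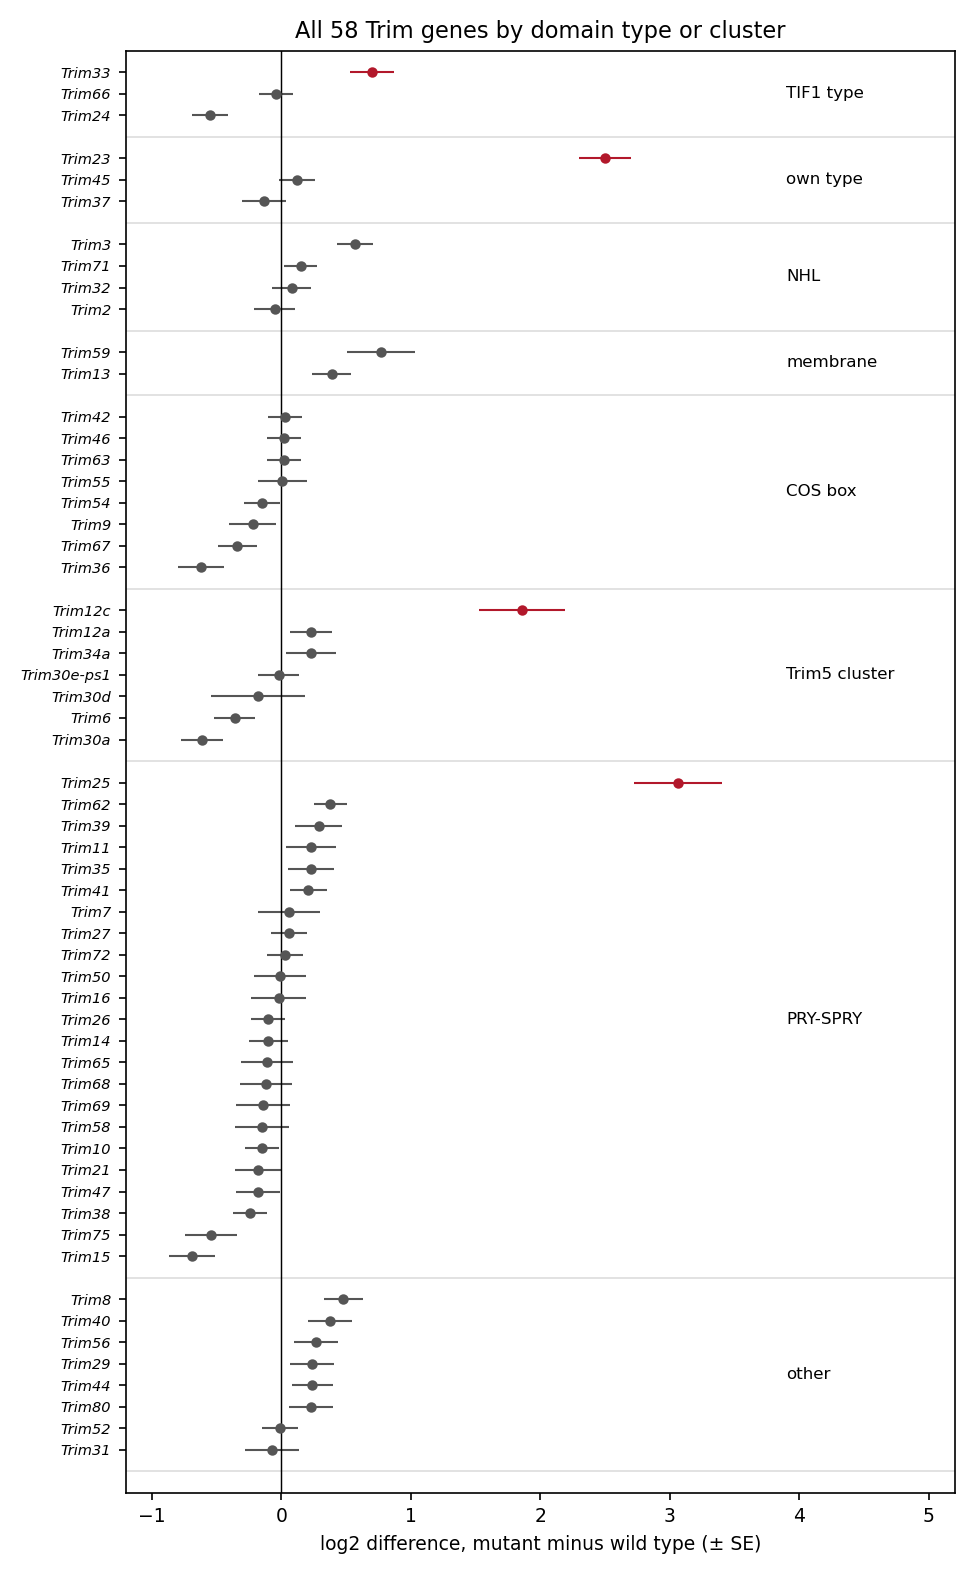
Log2 difference between mutant and wild-type oocytes with its standard error (horizontal axis) for all 58 Trim genes, grouped by domain type or by the run of genes around Trim12c, with red points past the threshold. Trim25 at 3.06, Trim23 at 2.50, Trim12c at 1.86 and Trim33 at 0.70 are the red points, and the 8 COS-box genes lie at or below 0.03.

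Further probe sets named several genes with a Trim gene among them and were not counted in the 58. The one for Trim60 and Trim61 read 10.06, 10.04 and 9.64 in mutant oocytes and 10.45, 10.06 and 10.32 in wild-type oocytes. It was bright in both genotypes, with overlapping arrays and a difference of -0.36 (SE 0.18, limma adjusted p = 0.322). The one for Trim43a, Trim43b and Trim43c was dim and differed by -0.18, and the one for Trim17 and the histone gene H2aw differed by -0.52 (limma adjusted p = 0.152).

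Relatives of the family that carry other names were measured in a list of 12, Trim28 among them, of which 0 rose and 1 fell, beside 6.4% and 4.04% of all genes. Before adjustment, limma put 0 of them higher and 2 lower at 0.05, beside 11% and 13.5% of all genes. The gene that fell was Fsd2, which shares the fibronectin and SPRY domains of some Trim proteins, at 5.10, 5.03 and 4.14 in mutant oocytes and 5.86, 6.11 and 5.81 in wild-type oocytes. It fell by 1.17 (SE 0.26, limma adjusted p = 0.0373) and is named because it was the only call in that list. The call was lost in 7 of 16 alternatives, among them the fits without wild type replicate 1, 2 or 3 or mutant replicate 2, at adjusted p up to 0.12. Pml, which builds nuclear bodies, differed by -0.26 (SE 0.14) and the microtubule ligase Mid1 by -0.25 (SE 0.15), both with all mutant arrays lower and neither past the threshold. Mid2, Triml1 and Triml2 were dim, with differences of 0.17, -0.29 and 0.24.

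Genes that act with Trim25 were followed in a list of 31, of which 28 were measured. It holds the RIG-I pathway, where Trim25 and the ligase Rnf135 modify the sensor and the adaptor Mavs, the kinase Tbk1 and the factor Irf3 pass the signal on. It also holds the ISG15 enzymes and the let-7 route, in which Lin28a binds the precursor and Tut4 or Tut7 add uridines to it. Of the 28 genes 2 rose, which were Tut4 and Tut7, and 0 fell, beside 6.4% and 4.04% of all genes. Before adjustment, limma put 6 of the 28 higher and 2 lower at 0.05, beside 11% and 13.5% of all genes. The share of 7.14% that rose past the adjusted threshold is close to that of all genes. All 3 mutant arrays lay above all 3 wild-type arrays in 9 of the 28 genes and below them in 3. This was so for 12.9% and 17.7% of all genes. The list was not tested as a set.

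Tut4 read 6.23, 5.63 and 5.87 in mutant oocytes and 4.24, 4.48 and 4.11 in wild-type oocytes. It is a terminal uridylyltransferase that, with Tut7, also marks messenger RNAs with short poly(A) tails for decay in mouse oocytes. It rose by 1.63 (SE 0.19, 3.10-fold, limma adjusted p = 0.00228) from a wild-type mean below the receptor-gene level, and passed under all 16 alternatives. Tut7 read 8.41, 8.26 and 8.10 in mutant oocytes and 7.30, 7.49 and 7.38 in wild-type oocytes. It rose by 0.87 (SE 0.14, limma adjusted p = 0.0111), a call lost without wild type replicate 1 (adjusted p = 0.0567) or wild type replicate 3 (0.0543). Neither gene's arrays overlapped between the genotypes.

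The sensor and its signalling chain did not pass. RIG-I itself (Ddx58) read 5.32, 5.48 and 5.78 in mutant oocytes and 5.94, 5.92 and 5.76 in wild-type oocytes, with a difference of -0.35 (SE 0.16, limma adjusted p = 0.296). Mavs differed by -0.06 (SE 0.15), Rnf135 by 0.32 (SE 0.13) and Lin28a by -0.13 (SE 0.14). The arrays of RIG-I, Mavs and Lin28a overlapped, while all mutant arrays of Rnf135 were higher. Zc3hav1, an antiviral protein that binds CpG-rich RNA and needs Trim25 in human cells, was dim in both genotypes and differed by -0.46 (SE 0.14, limma adjusted p = 0.11). Tbk1 had the largest difference after Tut4 and Tut7, at 0.70 (SE 0.21, limma adjusted p = 0.103). Irf3 differed by 0.39 (SE 0.14, limma adjusted p = 0.168). Both Tbk1 and Irf3 had all mutant arrays higher. Usp15, which removes ubiquitin from Trim25, differed by -0.45 (SE 0.15, limma adjusted p = 0.144). In Usp15 and Zc3hav1 all mutant arrays were lower. The interferon gene Ifnb1 lay below the receptor-gene level in both genotypes, as did Irf7, Usp18 and Ifih1. RIG-I and Cgas lay above that level in both. By their mean over the 6 arrays 17 of the 28 genes lay above it and 11 at or below it. The gene for ISG15 had no probe set of its own. Tbk1, Irf3, Usp15, Ifnb1, Irf7, Usp18, Ifih1 and Cgas are described after their values were seen.

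**Figure D5:**
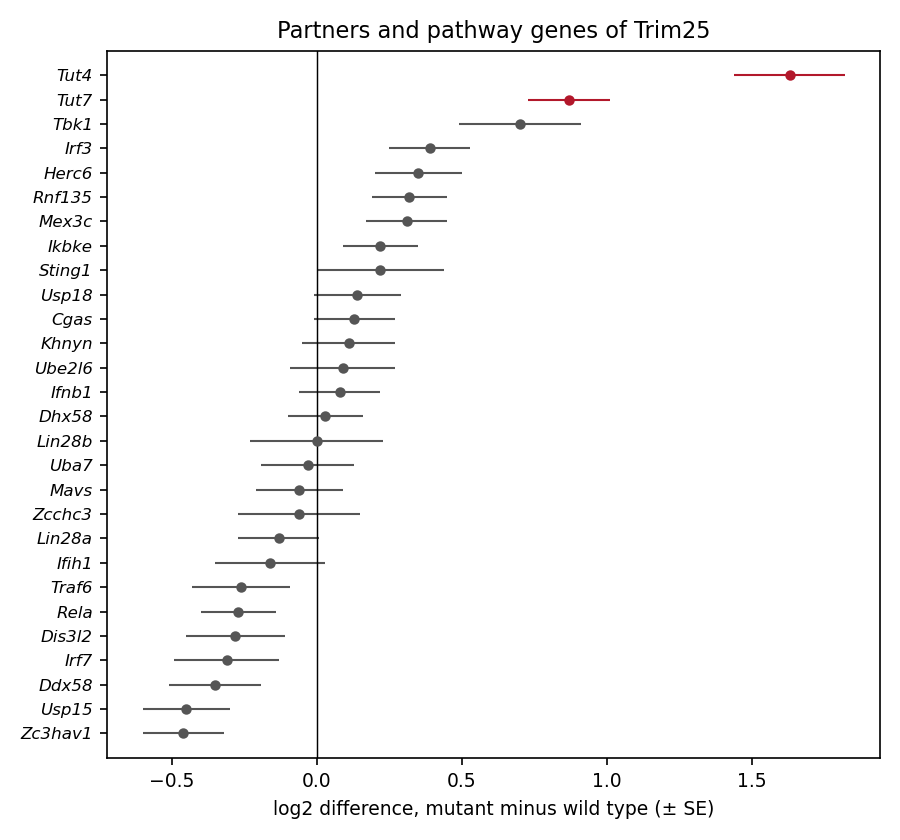
Log2 difference between mutant and wild-type oocytes with its standard error (horizontal axis) for the 28 measured partners and pathway genes of Trim25, ordered by difference, with red points past the threshold. Tut4 at 1.63 and Tut7 at 0.87 are the red points, and the remaining genes lie between -0.46 and 0.70.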

How the data were processed

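Values are the authors' deposited log2 expression per probe set, 6 arrays by 35556 rows, rounded to 2 decimals. Per the submitters' processing notes, GCOS, Affymetrix Expression Console 1.1 and RMA were used. The deposited arrays had medians of 4.56 to 4.76 and SDs of 2.04 to 2.20, so they do not share one distribution, and every difference is relative to the rest of the array. The probes' genome build was not given in the sources used here.

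The platform annotation named genes, with 21789 probe sets on 1 gene, 1621 on several and 12146 unnamed. All 58 members matched RefSeq GRCm38.p6, used for names, gene order and promoter windows only. Groups and replicate numbers came from the sample titles.

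The genotype comparison used limma 3.58.1 under R 4.3.3 (lmFit, eBayes, genotype only, two-sided, prior degrees of freedom 3.65) on all rows, with Benjamini-Hochberg adjustment over all rows and a threshold of 0.05. The fit was tested on simulated arrays. Named genes were Trim25, members past the threshold, the 8 members with the highest mean, relatives, Marf1 and set pathway genes. Further pathway genes were named after their values were seen. The members and lists were chosen with earlier results of these data known.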

Additional observations from a re-analysis of the deposited data

How the results depend on the processing

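There were 16 alternatives. The count of 4 Trim genes higher became 7 after cyclic loess normalization, 7 with 1 row per gene tested, 7 with the mean of a gene's rows, and 2 to 5 when an array was left out. The count of 0 lower became 3 after quantile normalization, 4 with only rows above the median row (32 members tested), 4 with 1 row per gene, 4 with the mean of a gene's rows, 1 with eBayes trend and robust, 3 with array weights, and 0 to 1 when an array was left out (1 without mutant replicate 3). The settings with 1 row per gene, the mean of a gene's rows and only rows above the median row tested fewer rows. Why the counts moved was not tested for any setting. The 2 partner genes that rose became 1 to 3 when an array was left out. They became 3 after cyclic loess normalization, with array weights and with only rows above the median row (14 partner genes tested). The count was also 3 with 1 row per gene and with the mean of a gene's rows. Trim25 kept its direction under all 16, at 2.80 to 3.50. Small differences that turned sign, none past the threshold, were those of Trim27 without mutant replicate 1 (-0.02, leave-one-out range -0.02 to 0.10), Trim32 without mutant replicate 2 (-0.00, range -0.00 to 0.15), Triml2 without mutant replicate 3 (-0.01, range -0.01 to 0.38), Lin28a after cyclic loess (0.03) and Mavs after cyclic loess (0.07), with array weights (0.01) and without mutant replicate 3 (0.05, range -0.14 to 0.05).

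Deviations from the group means correlated at 0.147, -0.0992 and 0.0267 between arrays of the same number. Between arrays of different numbers the correlations ran from -0.216 to 0.183. With 3 arrays a genotype, these values cannot show whether the numbers pair the samples. With the replicate number as a block, 3 Trim genes were higher and 0 lower, Trim33 being the call lost, and Trim25 stayed at 3.06. Over all genes the 1276 higher and 806 lower became 1048 and 383 with the block, 1548 and 527 after cyclic loess, 1051 and 485 after median centring, 1708 and 1514 with 1 row per gene, and 825 to 1423 and 199 to 617 when an array was left out. The share of higher calls over all genes was 61.3% and moved to 74.6% after cyclic loess, 73.2% with the block, 68.4% after median centring, 55.9% after quantile normalization, 53% with 1 row per gene, and 69.6% to 80.6% when an array was left out. With 3 arrays a genotype, signal near the receptor-gene level limits what could be detected in 22 of the 58 genes.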
